A study of Mus musculus with 8 samples.

Results

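The brain angiotensin system was followed here through 6 genes, Agt, Ace, Enpep, Agtr1a, Mas1 and Atp6ap2, picked by gene symbol from 55188 genes listed in hippocampal RNA-seq tables. All 6 symbols were found, once each, and each value carried the status OK. The 6 were chosen with earlier results of the same comparison known, including a low Ace level in mice that carry the label of a Pyk2 knockout (KO), so the differences of these 6 genes between genotypes are given as a description, without a test. Ptk2b encodes Pyk2, a cytoplasmic tyrosine kinase of neurons that responds to calcium. The 8 libraries came from the hippocampus of C57BL/6 mice, before fear conditioning: 2 numbered animals labelled KO (KO1 and KO2) and 2 numbered wild-type animals (WT1 and WT2), each with 2 technical replicates. The labels describe the mice of both groups as transgenic and give no allele, age or sex, and whether the numbers stand for separate mice is not said. Any p-value therefore measures the spread between these 4 units, which may be technical.

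Angiotensinogen, the product of Agt, is the only known precursor of the angiotensin peptides. Renin cuts it to angiotensin I, angiotensin-converting enzyme (Ace) trims this to angiotensin II, and glutamyl aminopeptidase (Enpep) removes a further residue to give angiotensin III. Angiotensin II acts mainly through the type 1 receptor, encoded in mice by Agtr1a and its relative Agtr1b, whereas Mas1 encodes a receptor linked to angiotensin-(1-7), a shorter peptide with opposing actions. Atp6ap2 encodes the prorenin receptor, which is also an accessory subunit of the vacuolar proton pump. In the rodent brain, Agt is made mostly by astrocytes, Mas1 is enriched in hippocampal neurons, and Ace is abundant in choroid plexus epithelium and in striatal projection neurons.

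Transcripts of Ptk2b itself were higher in all 4 libraries with the KO label, at 277, 279, 264 and 274 FPKM in the libraries labelled KO, against 232, 232, 203 and 202 FPKM in the WT libraries. FPKM are fragment numbers scaled to transcript length and to library size, so that levels can be set side by side between genes. The level therefore goes against the label as far as RNA is concerned, a value over the whole gene shows neither a lost exon nor a lost protein, and all directions given here rest on the labels. Each library had 26482 to 27871 genes above 0 and FPKM summing to 489121 to 506216, and no fragment counts were available, so depth is unknown. The hippocampal label was checked against 12 pyramidal and granule neuron markers such as Neurod6, Prox1 and Wfs1. All 12 were expressed, with a summed level of 314 to 360 FPKM in the libraries labelled KO and 280 to 315 FPKM in the WT libraries.

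Ace is the gene of the 6 with the widest separation between genotypes, and its annotation lists transcripts from more than 1 start. Which of these starts was used in these samples was not tested. In mm10 the gene spans chromosome 11, 105967945 to 105989964, on the plus strand (ENSMUSG00000020681, protein-coding). GENCODE M21 lists 4 transcripts, of which Ace-203, Ace-202 and Ace-204 begin inside the gene, at 105971323, 105975208 and 105976605. RefSeq (GRCm38.p6) gives 2 promoter windows for Ace, each 250 bases before to 50 after a start. Both are printed because the FPKM cannot say which start an Ace read came from, and the Agt window is printed beside them as the precursor gene whose level did not separate the genotypes. Capitals mark matches, on either strand, to the GC box GGGCGG, to TATAA and to the CCAAT box CCAAT.
Ace upstream start, chr11:105967698-105967997, plus strand: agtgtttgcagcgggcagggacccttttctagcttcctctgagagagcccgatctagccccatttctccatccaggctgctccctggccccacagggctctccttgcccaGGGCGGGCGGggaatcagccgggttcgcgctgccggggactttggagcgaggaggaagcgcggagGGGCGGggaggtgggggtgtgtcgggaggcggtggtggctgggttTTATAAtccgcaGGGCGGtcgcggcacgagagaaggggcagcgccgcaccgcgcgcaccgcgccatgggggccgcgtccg
Ace internal start, chr11:105974939-105975238, plus strand: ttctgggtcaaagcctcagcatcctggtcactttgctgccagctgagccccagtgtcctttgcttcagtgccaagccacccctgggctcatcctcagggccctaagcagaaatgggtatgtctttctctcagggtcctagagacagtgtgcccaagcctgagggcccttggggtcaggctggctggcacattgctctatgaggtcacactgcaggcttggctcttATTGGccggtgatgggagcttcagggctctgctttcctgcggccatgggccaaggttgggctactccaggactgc
Agt, chr8:124569657-124569956, minus strand: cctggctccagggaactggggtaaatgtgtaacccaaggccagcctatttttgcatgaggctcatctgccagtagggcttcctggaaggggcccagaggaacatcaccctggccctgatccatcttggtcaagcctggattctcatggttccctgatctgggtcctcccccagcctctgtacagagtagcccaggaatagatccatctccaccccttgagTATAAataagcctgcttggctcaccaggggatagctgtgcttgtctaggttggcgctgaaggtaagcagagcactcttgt

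The 2 Ace windows differed in composition. The upstream window was 69.7% G and C with 29 CpG dinucleotides, 4 GC box matches (2 of them overlapping) and 2 overlapping TATAA matches that begin 30 and 29 bases before the start. The internal window was 59.0% G and C with 2 CpG dinucleotides, no GC box and no TATAA match, and 1 CCAAT match on the reverse strand. The Agt window was 54.7% G and C with 1 TATAA match 30 bases before the start. Of 32851 RefSeq windows of the same length, 35.7% held GGGCGG, 24.9% held TATAA and 37.4% held CCAAT on either strand, so none of these matches is rare, and a match is no evidence of a bound factor. RefSeq windows were matched for 5 of the 6 genes, all but Agtr1a.

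Agt, the precursor gene, differed more between animals of 1 genotype than between genotypes. It stood at 8.97 and 9.33 FPKM in KO1 and at 13.6 and 13.8 FPKM in KO2, each value being 1 technical replicate, against 10.6 and 10.2 FPKM in WT1 and 12.7 and 14.0 FPKM in WT2. The groups overlapped, and in both genotypes the animal numbered 2 lay above the animal numbered 1, by 1.5 times in KO and 1.29 times in WT. The means were 11.4 ± 3.23 FPKM in animals labelled KO and 11.9 ± 2.10 FPKM in WT (SD, n = 2 each). On the log2(FPKM + 1) scale, used for every difference below as KO minus WT, the difference was -0.06 (standard error, SE, 0.21), and its sign turned with the animals used: 0.21 without KO1, 0.10 without WT2, -0.33 without KO2 and -0.23 without WT1. The gene lies on chromosome 8, 124556534 to 124569706 (ENSMUSG00000031980), and overlaps no other gene of the tables.

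The animal-to-animal pattern of Agt was not that of the summed astrocyte markers. The summed level of 12 astrocyte markers was 1332 FPKM in KO1 and 1225 FPKM in KO2, against 1224 FPKM in WT1 and 1178 FPKM in WT2, so within each genotype the animal with more Agt had the lower marker sum. That sum rests largely on Aldoc, Slc1a2 and Slc1a3, and single markers differed. Gfap was lower in KO2 than in KO1 and in WT2 than in WT1, while Fgfr3 was higher. The marker list had 7 members with a higher and 5 with a lower mean in animals labelled KO and a median difference of 0.03, beside -0.02 over all genes tested. Across the 8 libraries, which share 4 animals, the 5 genes whose log2 profile correlated best with Agt were Itgbl1, Syt17, Akap13, Fxyd6 and Stk32b, with Pearson's r of 0.983 to 0.997 among 6006 genes of comparable spread. Syt17, a synaptotagmin family gene, was at 21.7 FPKM in KO1 and 31.3 FPKM in KO2, against 24.7 FPKM in WT1 and 29.8 FPKM in WT2. Fxyd6, a regulator of the sodium pump, was at 35.6 FPKM in KO1 and 48.4 FPKM in KO2, against 39.2 FPKM in WT1 and 48.2 FPKM in WT2. Both repeat the order of low and high animals seen for Agt, which follows from their having been picked by correlation with it.

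**Figure D1:**
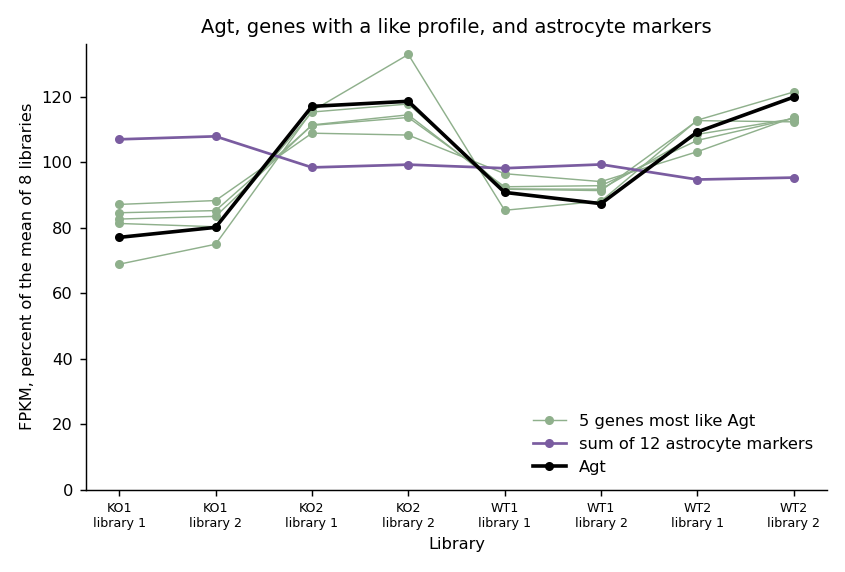
FPKM of Agt (black), of the 5 genes with the most similar profile (green) and of the sum of 12 astrocyte markers (purple) in each library, as a percent of the mean of the 8 libraries. Agt and its like genes are low in KO1 and WT1 and high in KO2 and WT2, while the astrocyte sum stays between 1174 and 1338 FPKM.

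Ace, the converting enzyme, was low in every library labelled KO. It stood at 3.25 and 3.38 FPKM in KO1 and at 7.43 and 7.40 FPKM in KO2, against 25.2 and 26.0 FPKM in WT1 and 31.6 and 31.9 FPKM in WT2. All 4 libraries labelled KO lay below all 4 WT libraries, and technical replicates differed by 3.68% at most, far less than the animals. The means were 5.37 ± 2.90 FPKM in animals labelled KO and 28.7 ± 4.35 FPKM in WT (SD, n = 2 each), 5.35 times lower in KO, with a difference of -2.29 (SE 0.32). Of the 16667 genes tested, 18 (0.108%) had a difference as low or lower. The 2 animals labelled KO were themselves apart, KO2 at 2.24 times KO1, while WT2 was at 1.24 times WT1. The difference ran from -2.78 without KO2 to -1.81 without KO1, and under the scaling, pseudocount and technical replicate alternatives it ran from -2.50 to -2.24. The span of Ace overlaps Gm11651, which was listed at values that round to 0 in all libraries. In bulk tissue, fewer cells of a type and less RNA per cell cannot be told apart.

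**Figure D2:**
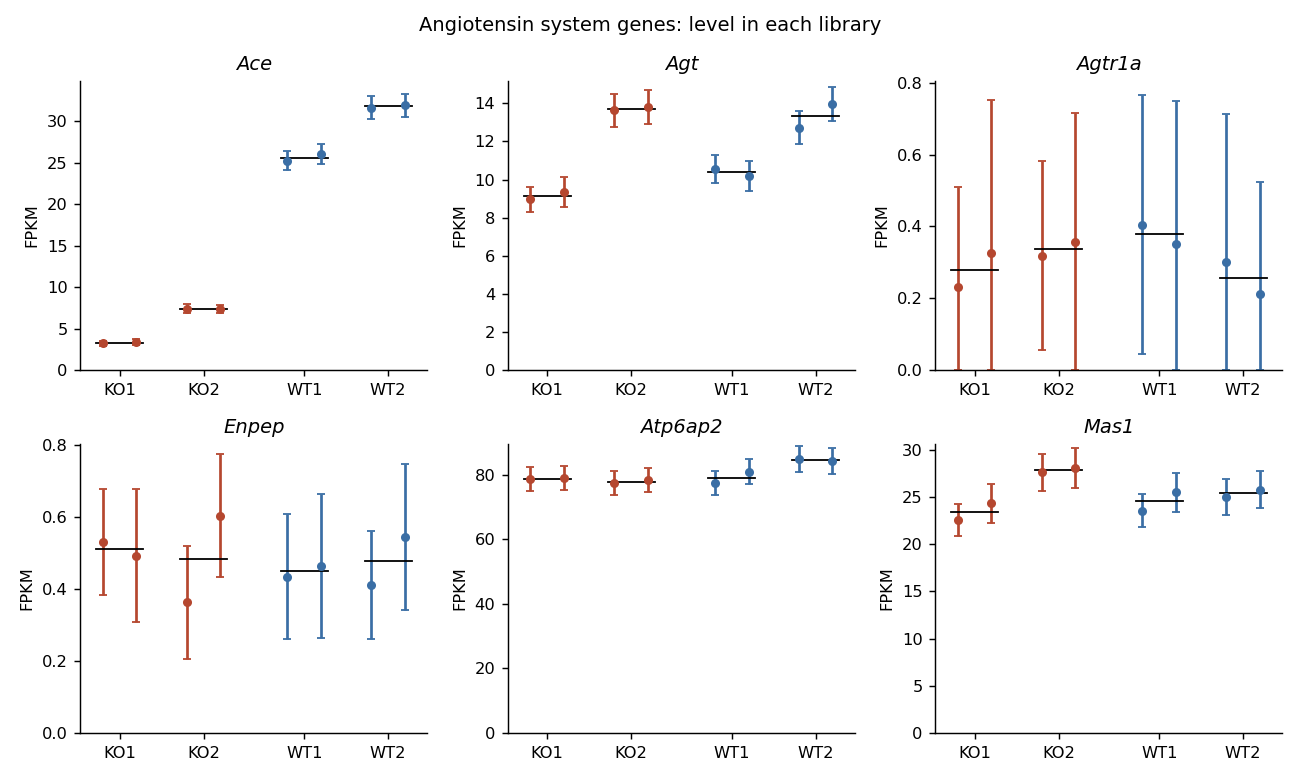
FPKM of each gene in each library (points) with the deposited confidence limits (bars) and the mean of each animal (black lines), animals labelled KO in red and WT in blue. Ace separates the genotypes, at 3.25 to 7.43 FPKM in the libraries labelled KO and 25.2 to 31.9 FPKM in WT. The libraries of the other 5 genes overlap.

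Choroid plexus markers moved with Ace, animal by animal. All 16 listed markers were below all 4 WT libraries in all 4 libraries labelled KO, as were 13.0% of all genes. Their differences ran from -3.49 (Ttr) to -1.69 (Tmem72), with a median of -2.33, and no marker had a level of 0. None of the 16 passed an adjusted p of 0.05 in limma, which 0.0540% of all genes passed. The list was chosen with earlier results of these data known, so nothing is read from either count. The summed level of the 16 was 292 to 1268 FPKM in the libraries labelled KO and 4279 to 7593 FPKM in the WT libraries. That sum rests largely on Ttr, at 557 ± 533 FPKM in animals labelled KO and 4845 ± 2092 FPKM in WT (SD, n = 2 each), and next on Enpp2. As a percent of its WT mean, Ace was at 11.6% in KO1, where the markers had a median of 6.60% and a range of 3.72% to 11.8%. In KO2 Ace was at 25.9% and the markers had a median of 25.4% and a range of 18.4% to 31.0%. In WT1 Ace was at 89.3% (marker median 86.7%), and in WT2 at 111% (marker median 113%). Ace thus lay inside the range of the markers in each of the 4 animals, near its upper end in KO1. As percents of the WT mean, the values of WT1 and WT2 mirror each other in every gene, so they are not separate agreements. All 16 markers ranked the 4 animals in the order of Ace. The share of all genes with that order was not counted and the list was chosen with results known, so nothing is read from it. The part of choroid plexus content in the Ace difference was not tested.

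**Figure D3:**
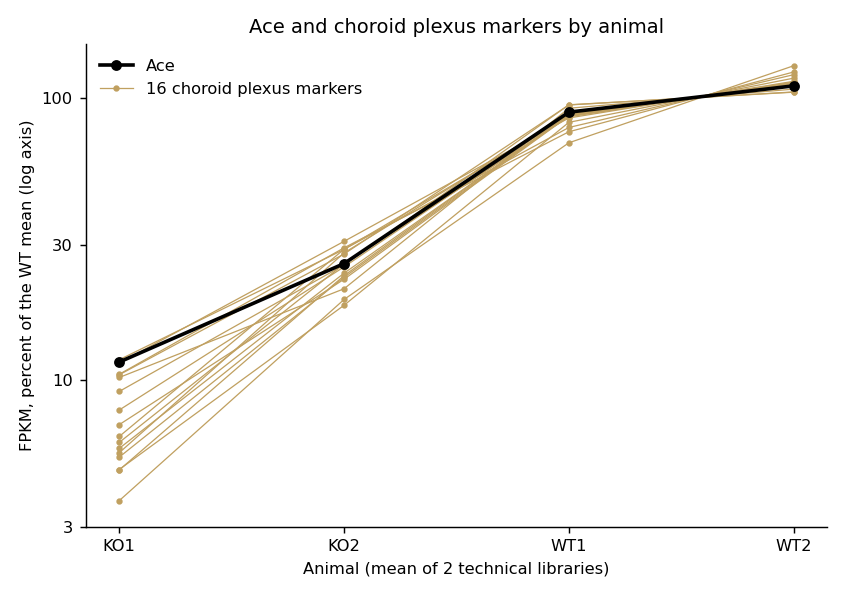
FPKM of Ace (black) and of 16 choroid plexus markers (tan) in each animal as a percent of the gene's own WT mean, on a log axis. Ace runs inside the band of markers, at 11.6% in KO1, 25.9% in KO2, 89.3% in WT1 and 111% in WT2.

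The most abundant of those markers were Ttr, the transthyretin gene, the autotaxin gene Enpp2, the folate receptor gene Folr1 and the anti-ageing gene Kl. Kl was at 7.86 ± 4.71 FPKM in animals labelled KO and 38.5 ± 7.45 FPKM in WT, 4.90 times lower in KO. Folr1 was at 7.03 ± 6.57 FPKM in animals labelled KO and 49.8 ± 8.70 FPKM in WT (SD, n = 2 each throughout). The genes whose log2 profile over the 8 libraries correlated best with Ace were Col8a1, Cldn2, Kcnj13, Kl and Slc2a12, with Pearson's r of 0.998 to 0.9995 among genes of comparable spread. Of these, Cldn2, a tight junction gene, Kcnj13, an inward rectifier channel gene, and Kl are on the choroid plexus list, while Col8a1, a short-chain collagen gene, and Slc2a12, a sugar transporter gene, are not. Col8a1 was at 0.379 FPKM in KO1 and 1.29 FPKM in KO2, against 4.55 and 4.65 FPKM in WT1, by technical replicate, and 5.71 FPKM in WT2.

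Other cell type markers showed smaller median differences than the choroid plexus list, and their counts of lower means stand beside 58.0% of all genes with a difference below 0. Of 12 endothelial markers, 11 had a lower mean in animals labelled KO, with a median difference of -0.09 and a summed level of 100.2 to 103 FPKM in the libraries labelled KO and 106 to 113 FPKM in WT. Of 12 striatal projection neuron markers, 7 had a lower mean, with a median of -0.08 and a summed level of 90.0 to 94.8 FPKM in the libraries labelled KO and 122 to 129 FPKM in WT. The striatal sum rests largely on Ppp1r1b, a phosphatase inhibitor of dopamine-responsive neurons, at 28.2 ± 0.220 FPKM in animals labelled KO and 50.9 ± 1.98 FPKM in WT, and on the opioid precursor gene Penk, at 17.3 ± 0.133 FPKM in animals labelled KO and 24.0 ± 3.40 FPKM in WT. Ppp1r1b passed the threshold (adjusted p = 0.0372 in limma), and no marker of the list was at 0. Ependymal markers had a lower mean in 8 of 8, with a median of -0.67 and a summed level of 29.2 to 52.4 FPKM in the libraries labelled KO and 65.6 to 76.9 FPKM in WT. Meningeal fibroblast markers had a lower mean in 10 of 10, with a median of -0.56 and a summed level of 39.2 to 70.6 FPKM in the libraries labelled KO and 112 to 187 FPKM in WT. The meningeal sum rests largely on the growth factor gene Igf2, at 21.5 ± 6.93 FPKM in animals labelled KO and 92.8 ± 36.4 FPKM in WT. None of these markers was at 0. The part of these cell types in the Ace difference was not tested either.

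**Figure D4:**
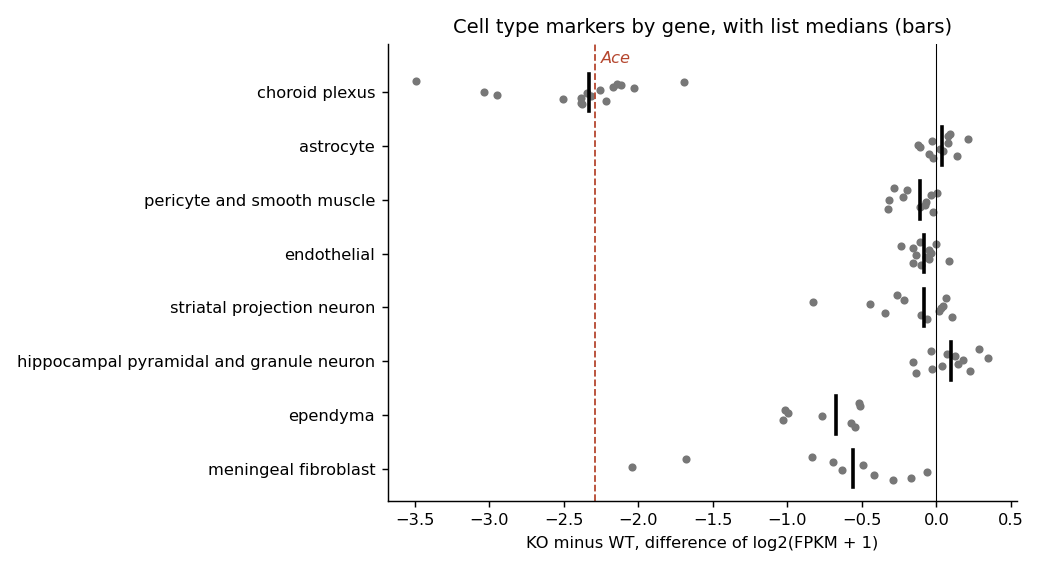
Difference of log2(FPKM + 1), KO minus WT, for each marker gene (points) with the median of each list (bars) and the value of Ace (dashed line). The choroid plexus median of -2.33 lies beside Ace at -2.29, and the other medians lie between -0.67 and 0.10.

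Enpep, which makes angiotensin III and in the brain marks pericytes, was near the limit of measurement. It stood at 0.530 and 0.492 FPKM in KO1 and 0.362 and 0.603 FPKM in KO2, against 0.434 and 0.463 FPKM in WT1 and 0.411 and 0.543 FPKM in WT2. The libraries overlapped, and the technical replicates of KO2 alone differed by 49.9%, although both animal means were higher in KO than in WT. The animal means were 0.497 ± 0.0200 FPKM in KO and 0.463 ± 0.0201 FPKM in WT (SD, n = 2 each), a log2 difference of 0.03 and 7.32% of the WT mean, where the deposited confidence limits reach 27.8% to 43.1% to either side of each value. Of 12 pericyte and smooth muscle markers, 11 passed the minimum level and 10 of these had a lower mean in animals labelled KO, with a median of -0.11 and a summed level of 49.0 to 55.7 FPKM in the libraries labelled KO and 56.7 to 64.0 FPKM in WT, and none was at 0. Enpep (ENSMUSG00000028024) spans chromosome 3, 129269175 to 129332720, and overlaps Gm42628.

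The angiotensin receptors showed no separation either. Agtr1a stood at 0.231 and 0.326 FPKM in KO1 and 0.319 and 0.357 FPKM in KO2, against 0.405 and 0.353 FPKM in WT1 and 0.301 and 0.212 FPKM in WT2. The groups overlapped, with means of 0.308 ± 0.0421 FPKM in animals labelled KO and 0.318 ± 0.0863 FPKM in WT (SD, n = 2 each), and the difference of -0.0096 became 0.04 under quantile normalization. The deposited lower limit was 0 in 6 of the 8 libraries, so differences between genotypes were not detectable at this level. Agtr1a (ENSMUSG00000049115, chromosome 13, 30336441 to 30382867) overlaps Gm48161, and with no strand setting given their reads cannot be fully separated. Mas1 was expressed at a much higher level, with 22.6 and 24.3 FPKM in KO1 and 27.6 and 28.1 FPKM in KO2, against 23.5 and 25.5 FPKM in WT1 and 25.0 and 25.8 FPKM in WT2. KO2 was the highest animal and KO1 the lowest, so the WT animals lay between them. The means were 25.6 ± 3.10 FPKM in animals labelled KO and 25.0 ± 0.608 FPKM in WT (SD, n = 2 each), a difference of 0.03 (SE 0.09) that was 0.15 without KO1 and -0.09 without KO2. Mas1 (ENSMUSG00000068037, chromosome 17, 12841079 to 12868143) overlaps the long noncoding RNA gene Airn, listed at 0.550 to 1.89 FPKM across the libraries, and Gm24085, so some of its reads may be ambiguous.

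Between Mas1 and Agt, Pearson's r was 0.812 over 8 libraries that share 4 animals, given as a description. It was the highest of all pairs among the 6 genes, the next being Ace with Atp6ap2 at 0.634, so nothing is read from it. The summed hippocampal neuron markers did not share the order of the animals in Mas1, at 355 FPKM in KO1 and 314 FPKM in KO2, against 315 FPKM in WT1 and 281 FPKM in WT2. Neurod6 and Wfs1, the most abundant, were lower in KO2 than in KO1 and in WT2 than in WT1, while Calb1 and Fibcd1 were higher. The 5 genes most like Mas1, led by Tmem35a, had r of 0.946 to 0.958, the highest among 14387 genes. Tmem35a, a chaperone gene of nicotinic receptors, was at 24.9 FPKM in KO1 and 28.1 FPKM in KO2, against 25.5 FPKM in WT1 and 26.3 FPKM in WT2. For the low genes Agtr1a and Enpep, the closest genes, Rimbp3 and Gm7984, had r of 0.947 and 0.937. As the highest values among many genes over 4 animals, r of this size is no finding for these low genes or for Mas1.

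Atp6ap2, the prorenin receptor gene, was the most abundant of the 6. It stood at 78.6 and 79.0 FPKM in KO1 and 77.4 and 78.4 FPKM in KO2, against 77.4 and 80.9 FPKM in WT1 and 84.8 and 84.3 FPKM in WT2. The libraries overlapped, with WT2 above the rest and the technical replicates of WT1 on either side of the libraries labelled KO. Both animal means were nonetheless lower in KO, at 78.8 and 77.9 FPKM, against 79.1 FPKM in WT1 and 84.6 FPKM in WT2. The means were 78.3 ± 0.628 FPKM in animals labelled KO and 81.9 ± 3.84 FPKM in WT (SD, n = 2 each), 4.29% lower in KO, with a difference of -0.06 (SE 0.05) that was -0.01 without WT2, -0.11 without WT1, -0.05 without KO2 and -0.07 without KO1. Its best-correlated genes were Herpud1, Fbln2, Slc16a1, Zfp410 and Mrc2, with r of 0.949 to 0.973. These are the highest values among 16496 genes over 4 animals and are likewise no finding. Herpud1, a gene of the endoplasmic reticulum stress response, was at 23.9 FPKM in KO1 and 22.2 FPKM in KO2, against 23.5 FPKM in WT1 and 28.2 FPKM in WT2. Atp6ap2 (ENSMUSG00000031007) lies on chromosome X, 12587801 to 12617049.

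Among the 6 genes, the order of levels per length differed between genotypes in the place of Ace. In all 4 libraries labelled KO it ran Atp6ap2, Mas1, Agt, Ace, Enpep, Agtr1a. In all 4 WT libraries it ran Atp6ap2, Ace, Mas1, Agt, Enpep, Agtr1a. Ace and Mas1 were close in WT1, at 25.6 and 24.5 FPKM, and their SD overlap in WT, so that order is weak. The ratio of Ace to Agt was 0.362 in KO1 and 0.541 in KO2, against 2.47 in WT1 and 2.38 in WT2. The ratio of Agt to Atp6ap2, in contrast, was 0.116 in KO1 and 0.176 in KO2, against 0.131 in WT1 and 0.158 in WT2, with overlapping groups. Enpep and Agtr1a were the lowest in every library, but their deposited limits overlap in each of them.

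To the question whether Ace alone is low, the 6 genes give 1 with all libraries labelled KO below all WT libraries and 5 with overlapping libraries. Over the 16667 genes tested 13.0% had all libraries labelled KO below WT and 7.11% had all above, and since the genes were chosen on this contrast nothing is read from that count. A minimum of 0.5 FPKM in 2 animals was passed by 4 of the 6, Enpep and Agtr1a being below it. Of these, 3 had a difference below 0, as did 58.0% of all genes, and 1 had a difference of -1 or lower, as did 0.726%. The 4 had differences of -2.29, -0.06, -0.06 and 0.03, beside a median of -0.02 over all genes. In the limma fit over all genes 9 passed an adjusted p of 0.05 (Benjamini-Hochberg, 0.0540%), all lower in KO. That count was 0 without WT1, 0 without WT2, 1 without KO1 and 128 without KO2.

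The rest of the renin-angiotensin system was examined through 25 further genes, none of which was among the 6. Of these, 14 passed the minimum level and 11 did not. At an adjusted p under 0.05 in limma, 0 of the 14 rose and 0 fell (lowest adjusted p = 0.0993). At an unadjusted p under 0.05 there were 3, all lower in animals labelled KO, against 15.5% of all genes, 11.4% lower and 4.11% higher. In 4 of the 14 all libraries labelled KO lay below all WT libraries (13.0% of all genes) and in 2 they lay above (7.11%), with a median difference of 0.03 beside -0.02 over all genes.

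The 3 genes of this wider list with an unadjusted p under 0.05 were Agtrap, Ctsd and Ctsa. Agtrap, which encodes a protein that promotes internalisation of the type 1 receptor, had 2.09, 2.45, 2.24 and 2.34 FPKM in the libraries labelled KO, against 3.38, 3.26, 3.35 and 3.68 FPKM in WT. Its difference was -0.43 (SE 0.07, adjusted p = 0.112 in limma), with both animals labelled KO within 1.01 times of each other and below both WT animals. Ctsd, the lysosomal protease cathepsin D, which can cut angiotensinogen in vitro, had 133, 135, 132 and 136 FPKM in the libraries labelled KO, against 166, 167, 182 and 182 FPKM in WT. The difference was -0.38 (SE 0.05, adjusted p = 0.0993 in limma). Ctsa, the carboxypeptidase cathepsin A, had 41.5, 42.4, 42.6 and 42.2 FPKM in the libraries labelled KO, against 49.4, 48.5, 52.2 and 52.7 FPKM in WT, a difference of -0.26 (SE 0.05, adjusted p = 0.125 in limma). In these 3 genes the libraries did not overlap, and KO2 was at 0.998 to 1.01 times KO1, where for Ace it was at 2.24 times. The 3 were picked by p, which with 2 animals per group favours genes whose animals agree, so nothing is read from that contrast. The span of Ctsa overlaps Pltp, a phospholipid transfer protein gene at 26.6 ± 4.29 FPKM in animals labelled KO and 47.8 ± 2.06 FPKM in WT (SD, n = 2 each), so some of its reads cannot be separated from that gene.

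**Figure D5:**
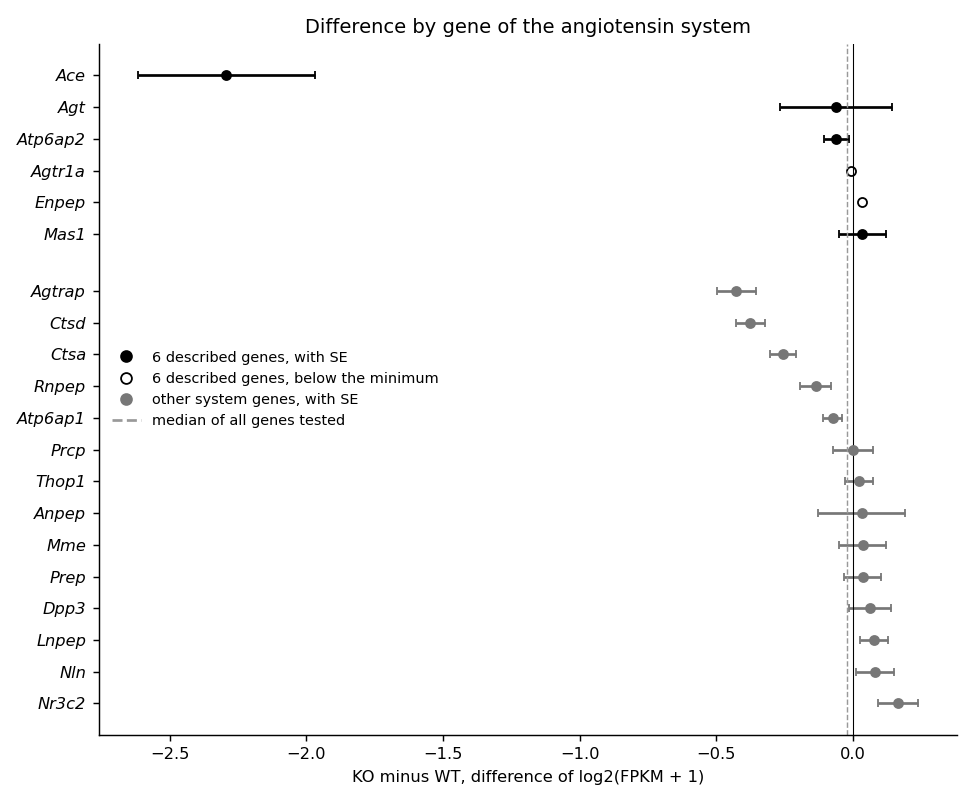
Difference of log2(FPKM + 1), KO minus WT, with its SE (bars) for the 6 genes (black) and the 14 further genes that passed the minimum (grey). Open circles are Agtr1a and Enpep, below the minimum and without an SE, and the dashed line is the median of all genes at -0.02. Ace lies at -2.29, and the grey genes lie between -0.43 and 0.16.

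The remaining genes with the largest differences were peptidases and the receptor of aldosterone. Nln, neurolysin, had a difference of 0.08 (SE 0.07), with 7.01 ± 0.461 FPKM in animals labelled KO and 6.57 ± 0.230 FPKM in WT. Rnpep, aminopeptidase B, was at 14.7, 15.1, 13.6 and 14.5 FPKM in the libraries labelled KO, against 16.4, 16.6, 14.5 and 16.6 FPKM in WT, a difference of -0.14 (SE 0.06, adjusted p = 0.344 in limma). Nr3c2, the mineralocorticoid receptor gene through which aldosterone acts, was higher in all 4 libraries labelled KO than in any WT library, at 32.7 ± 0.424 FPKM in animals labelled KO and 29.1 ± 2.91 FPKM in WT (SD, n = 2 each), with a difference of 0.16 (SE 0.07, adjusted p = 0.369 in limma). None of these passed the threshold, which at 2 animals per group does not show that they did not differ.

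The genes below the minimum include renin itself, and those given here were named after their values were seen. Ren1 was listed at 0.0285, 0.0575, 0.0484 and 0.0337 FPKM in the libraries labelled KO, against 0.107, 0.197, 0.256 and 0.301 FPKM in WT. All libraries labelled KO were lower, but the deposited lower limit was 0 in 8 of 8 libraries, so at this level a difference was not detectable. Agtr2, the type 2 receptor gene, reached 0.340 FPKM at most in any library, and Agtr1b 0.0605 FPKM. Ace3 and Mrgprd were listed at 0 in all 8 libraries.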

How the data were processed

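RNA-seq of mouse hippocampus was read from 1 gene table per library. Per the file headers, the authors deposited FPKM together with confidence bounds and a status flag for every gene. Bowtie (version 1), HISAT and the build mm10 are listed, without roles, in the submitters' processing notes. Which program computed FPKM, how libraries were scaled and whether strand was used is not given in the sources used here. Because FPKM are relative to the library total, abundant genes that differ shift all others. No fragment counts were used, so depth is unknown and the deposited limits are the measure of precision.

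Values with a status other than OK (0 to 3 per library) were set to missing and rows that repeat a gene identifier were summed. The mean of both technical replicates stood for an animal. The 16667 genes that reached 0.5 FPKM in 2 animals were analysed on the log2(FPKM + 1) scale (limma 3.58.1, R 4.3.3, trended variance, 2 animals labelled KO minus 2 WT, Benjamini-Hochberg adjustment over all genes). The pseudocount of 1 understates changes of low genes. An exact permutation test of 2 against 2 animals cannot go below p = 0.333. The procedure was tested on simulated data. Coordinates are those of the tables counted from 1, and all 6 genes have the same ones in GENCODE M21. Promoters are from RefSeq (GRCm38.p6).

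The 6 genes and all lists were chosen with earlier results of these data known. Named further genes are the 6 of the renin-angiotensin list with the largest difference, the 4 most abundant members of a marker list (not all printed), the 5 genes best correlated with each of the 6 among genes with an SD of at least the gene's own divided by 2, and Ptk2b. Others were named after their values were seen, and 1 gene of the list is not reported here by name. Alternatives were other pseudocounts, minimums, scalings and thresholds, single technical replicates, each animal left out and the animal number as a block.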

Additional observations from a re-analysis of the deposited data

Results flagged for a closer look

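Among 40 groups of 4 libraries (20 genes, 2 genotypes), 2 held a library far from the other 3 by Dixon's criterion, which chance alone gives for about 1 group in 20. Dpp3, an aminopeptidase of angiotensin peptides, had its highest library labelled KO at 11.75 FPKM, in KO1. Rnpep had its lowest WT library at 14.46 FPKM, in WT2, whose other technical replicate gave 16.6 FPKM. The 4 libraries of a group are 2 animals with 2 technical replicates each, so they are not independent.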

How the results depend on the processing

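The Ace difference kept its sign in all 11 alternatives run and ran from -2.78 to -1.81. It stayed within 1 SD (0.505) of -2.29 in each. Leaving out 1 of 2 animals cannot move a gene's difference beyond that SD, and the animal block cannot move it at all. Those settings therefore do not test whether it stays within 1 SD. The sign of Agt turned in 2 of 11, of Mas1 in 1 and of Agtr1a in 5, all of them differences near 0; Enpep and Atp6ap2 kept theirs in 11 of 11. The choroid plexus median ran from -2.89 to -1.68, the ependymal median from -1.04 (without KO2) to -0.36 (without KO1) and the meningeal median from -0.75 (without WT1) to -0.31 (without WT2).

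The count of genes called over all genes, 9, depended on the setting: 14 with a pseudocount of 0.1, 0 of 34097 genes with no filter (3741 at an unadjusted p under 0.05), 19 and 36 with the first and second technical replicate only, 1 without a variance trend, 20 without the first library of KO1 and 175 at a threshold of 0.1. With 1 animal left out it ran from 0 to 128 (0 without WT1 and without WT2, with 1631 and 1327 at an unadjusted p under 0.05, 1 without KO1, 128 without KO2), fits in which the single animal takes its spread from the other genotype. The cause was not tested. Of the 14 further renin-angiotensin genes, 1 passed at a threshold of 0.1 and 0 in every other setting run. Animals share a number between genotypes, but 2 pairs cannot establish a pairing (correlation of deviations 0.107 over 16667 genes). With the animal number as a replicate block 184 genes were called and 0 of the further renin-angiotensin genes.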
